A study of Rattus norvegicus with 16 samples.

Results

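The JAK, STAT and SOCS genes are described here in dorsal root ganglia (DRGs) of rats with a bone tumor. The 10 genes Jak1, Jak2, Jak3, Stat3, Stat4, Stat5a, Stat6, Socs1, Socs2 and Socs3 were taken by their symbols from per-sample tables that list 21021 genes each, and all 10 were found. Adult female Sprague-Dawley rats received Walker-256 mammary carcinoma cells, which are themselves rat cells, in the left tibia (tumor cell implantation, TCI), and the L3–L5 DRGs of that side from 1 rat were pooled into 1 sample. The 4 groups were TCI day 1, TCI day 7, TCI day 14 and sham, with 4 samples in each. By their labels all sham DRGs were collected at day 14, so that for days 1 and 7 the tumor and the time since surgery cannot be told apart. Sham rats were injected with PBS according to the labels and with boiled tumor cells according to the methods.

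Janus kinases (JAKs) sit on the inner ends of cytokine receptors and are switched on when a cytokine binds. They phosphorylate STAT proteins, which pair up, enter the nucleus and switch on target genes, and among these targets are the suppressors of cytokine signaling (SOCS), which bind receptors and JAKs and shut the signal down again. In DRGs, sensory neurons, glia and immune cells all answer to cytokines through this pathway, and STAT3 in sensory neurons is known for its part in the response to nerve injury.

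Expression was measured as FPKM, the fragments of a gene scaled to its length and to all mapped fragments of the library, so that levels can be compared between genes. How many fragments stand behind a value cannot be read from the FPKM. The study did not use day 1 sample 2 and day 7 sample 3, and unless stated otherwise values come from the other 14 samples. Both of these samples stood apart here too. Sample 3 of day 7 held a summed FPKM of 19600 over 8 skeletal muscle markers, against 9.11 to 20.4 in 14 of the other samples and 465 in sham sample 4, and its neuron markers summed to 10200 FPKM, below every other sample. Sample 2 of day 1 held 20800 FPKM of 6 Schwann cell markers, against 12600 to 14000 in the other day 1 samples. Leaving out sham sample 4 changed no call of a member against sham. Neuron markers were present throughout, with Nefl, a neurofilament gene, between 3380 and 4700 FPKM in the 14 samples.

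In sham DRGs the mean levels of the 10 genes ran from 0.075 to 77.1 FPKM. Stat3, the transcription factor downstream of the interleukin-6 family of cytokines, was the most highly expressed with 77.1 ± 2.74 FPKM (SD, n = 4). Jak1, a kinase shared by most cytokine receptors, followed with 67.6 ± 3.26 FPKM. Stat6, which acts downstream of interleukin-4 and interleukin-13, stood at 24.1 ± 1.21, Socs2, an inhibitor of growth hormone signaling, at 10.4 ± 1.11 and Jak2, the kinase of hormone-type receptors, at 7.54 ± 0.313 FPKM. Below these lay Stat5a (4.46 ± 0.277), Socs3 (3.64 ± 0.3), Jak3 (2.86 ± 0.375), Socs1 (1.54 ± 0.298) and Stat4 (0.075 ± 0.0311 FPKM). No 2 neighbours in this order overlapped in their sham samples. On day 7 the order changed in its lower part, where Jak2 (9.84 ± 0.5 FPKM, SD, n = 3), Socs2 (8.68 ± 1.03), Socs3 (6.88 ± 1.07) and Jak3 (6.37 ± 0.754) followed each other with overlapping samples. Stat5a (4.73 ± 0.386) then stood below Socs3 and Jak3.

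**Figure D1:**
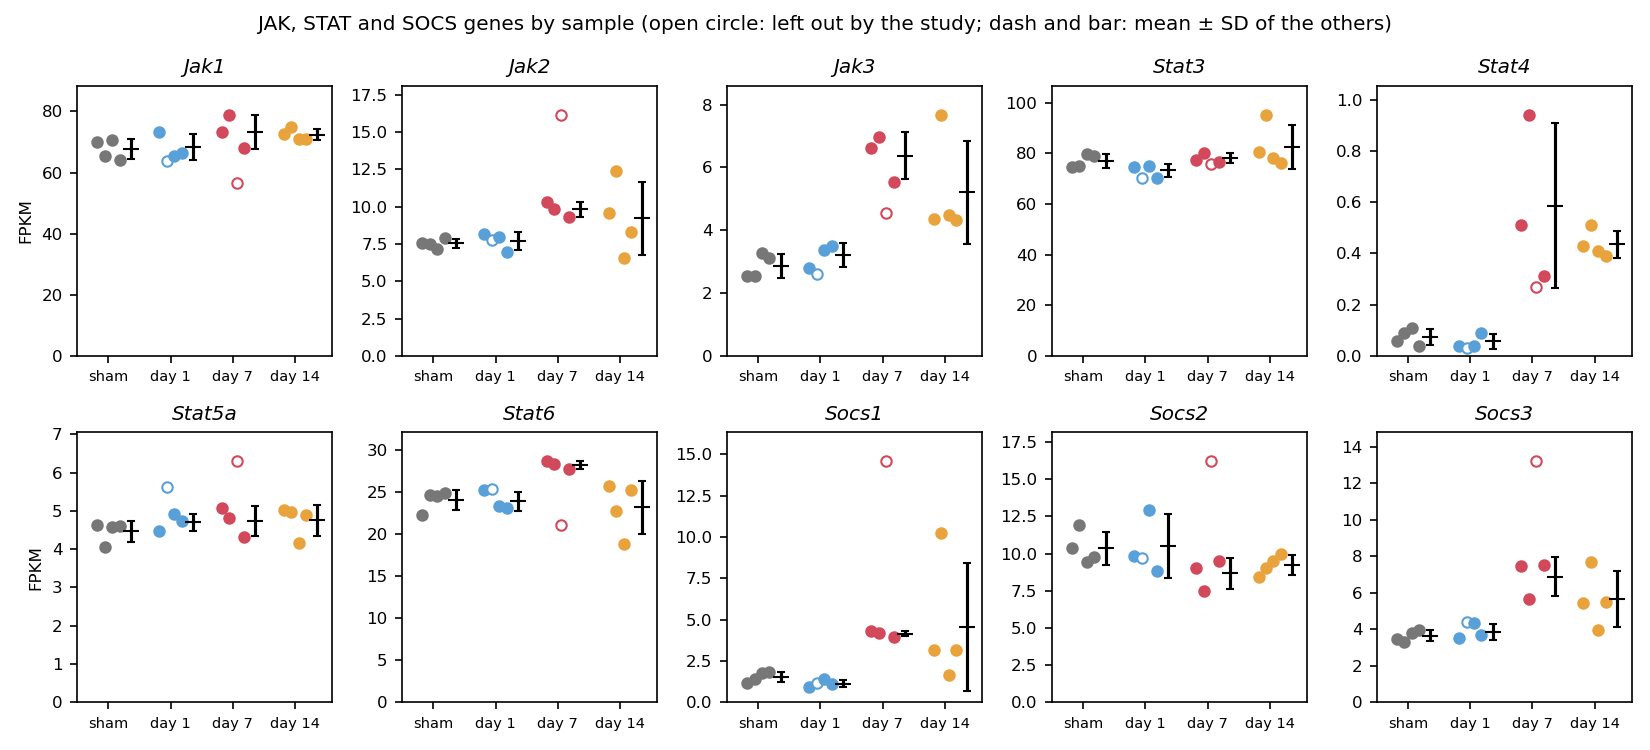
FPKM (linear axes, from 0) of each of the 10 genes in all 16 samples by group, with the mean and SD of the samples that the study kept and open circles for the 2 it left out. Jak3 and Stat4 lie above all sham samples on days 7 and 14, Jak1 and Stat3 stay near their sham levels, and the open circle of day 7 is far above the others for Jak2, Socs1, Socs2 and Socs3.

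Compared with sham, 0 of the 9 tested genes passed the test on TCI day 1, where 0% of all tested genes did. Jak3 and Socs3 were higher on days 7 and 14. Differences were tested with limma on log2(FPKM + 1) in 1 fit of all 4 groups, with p-values adjusted by the Benjamini-Hochberg method over the 14023 genes that reached 1 FPKM in 3 samples or more, and a gene was called at an adjusted p of at most 0.05. Stat4 did not reach this level in any of the 14 samples and was not tested, so that 9 of the 10 genes were. A fold change on this scale understates the change of genes with few FPKM. On day 7, 2 of the 9 tested genes were higher, against 14.5% of all tested genes, and 0 were lower, against 3.45%. On day 14, 2 of 9 were higher, against 11.9%, and 0 were lower, against 3.21%. With so few genes these shares are not read as particular to the family. The median log2 fold change of the tested members was 0.22 on day 7 and 0.10 on day 14, beside 0.04 and 0.03 over all tested genes. The cut-offs of the study were an adjusted p of 0.001 or less together with a log2 change of 1 or more in either direction. The study applied them with another test than limma, so the counts given here are not the study's own. Here 0 of the 9 passed on day 7, where 1.83% of all tested genes were higher, and 0 passed on day 14, with 0.642%. By limma, 5 of the 9 had an unadjusted p under 0.05 on day 7, against 31.2% of all tested genes, and 3 of 9 on day 14, a share near the 29.9% of all tested genes.

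The balance of higher and lower calls over all genes depended on the scaling between samples. Of all genes called, 80.7% were higher on day 7 and 78.8% on day 14, but 39.7% and 45.1% after the median of each sample was set equal, and 36.6% and 41.6% after quantile normalization. Setting the medians equal shifted the log2 fold changes of day 7 by -0.11. Jak3 and Socs3 stayed called on day 7 with that scaling, at log2 fold changes of 0.82 and 0.65. In RNA from a whole ganglion, more cells of a type and more RNA per cell cannot be told apart.

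**Figure D2:**
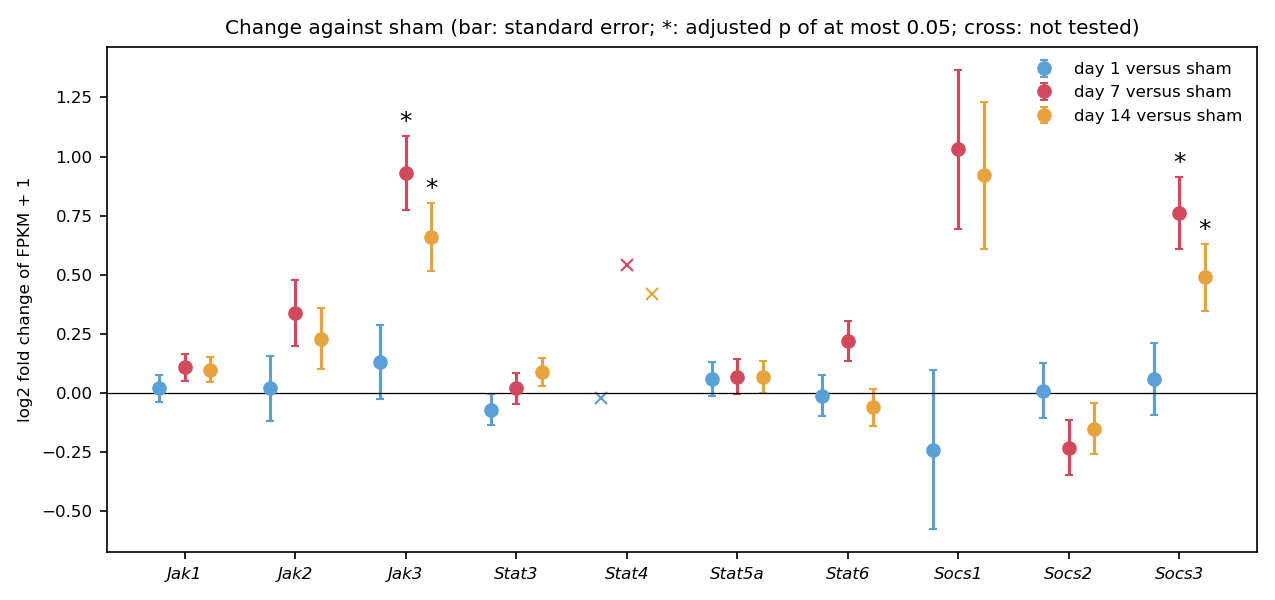
Log2 fold change of FPKM + 1 against sham for the 10 genes on TCI days 1, 7 and 14, with standard errors from limma, asterisks for an adjusted p of at most 0.05 and crosses for Stat4, which was not tested. Jak3 and Socs3 pass on days 7 and 14, Socs1 has larger fold changes but wider errors, and the day 1 values lie near 0.

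Jak3 was the member with the clearest rise. This kinase pairs with the common gamma chain of interleukin receptors and is known mainly from lymphocytes. Its FPKM were 2.55, 2.54, 3.26 and 3.11 in the sham samples and 2.79, 3.37 and 3.51 on day 1. They were 6.63, 6.96 and 5.52 on day 7 and 4.37, 7.67, 4.48 and 4.32 on day 14. Every day 7 and day 14 sample lay above every sham sample, and sample 2 of day 14 lay above all others. The sample of day 7 that the study left out, with 4.54, was lower than the 3 others but above sham as well. Jak3 was 2.22 times its sham mean on day 7 and rose by 0.93 on the log2 scale (standard error 0.156, adjusted p = 0.00136 from limma). On day 14 it was 1.82 times that mean, and the log2 rise was 0.66 (standard error 0.144, limma's adjusted p = 0.00942). On day 1 the log2 fold change was 0.13 (95% interval -0.21 to 0.47).

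Jak1 and Jak2 did not pass the test on any day. Jak1 had sham values of 70.13, 65.45, 70.66 and 64.22 FPKM, and on day 14 values of 72.55, 74.84, 71.05 and 71.00. These day 14 values all lay above the sham values, but by little, with a log2 fold change of 0.10 (95% interval -0.02 to 0.21, limma's adjusted p = 0.242). On day 7 the values were 73.15, 78.84 and 67.91, and the log2 fold change was 0.11 (limma's adjusted p = 0.2). Jak2 had 7.60, 7.51, 7.14 and 7.90 FPKM in sham, 10.34, 9.84 and 9.34 on day 7 and 9.61, 12.41, 6.57 and 8.28 on day 14. All day 7 samples were higher than all sham samples, while sample 3 of day 14 was below them. Its log2 fold change on day 7 was 0.34 (95% interval 0.04 to 0.65, limma's adjusted p = 0.109). Sample 3 of day 7 had 16.15 FPKM, more than any other sample, and with all 16 samples Jak2 was called on day 7 (log2 fold change 0.51, limma's adjusted p = 0.0379).

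Jak2 was also called on day 7 when sample 2 or sample 3 of day 14 was left out, which narrows the spread that the groups share (limma's adjusted p = 0.0235 and 0.0291). A fit of only the day 7 and sham samples called Jak2 as well (limma's adjusted p = 0.00327). In 19 of 23 alternatives Jak2 was not called on day 7. Without sample 3 of day 14 it was called on day 14 too, with a log2 fold change of 0.36 (limma's adjusted p = 0.0281) in place of 0.23 (0.259).

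Among the STATs, Stat3 did not pass the test on any day. It had 74.60, 74.99, 79.94 and 79.03 FPKM in sham, 74.84, 74.90 and 70.27 on day 1, and 77.43, 80.25 and 76.50 on day 7. On day 14 it had 80.63, 95.22, 78.14 and 76.12. The groups overlapped on every day, with sample 2 of day 14 alone far above sham. The log2 fold change was -0.07 on day 1 (95% interval -0.21 to 0.07), 0.02 on day 7 (-0.12 to 0.16, limma's adjusted p = 0.893) and 0.09 on day 14 (-0.04 to 0.22, limma's adjusted p = 0.34). Its day 7 value turned to -0.09 with equal medians. These are levels of the mRNA, and the activity of STAT3, which depends on its phosphorylation, was not measured.

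Stat4, which acts downstream of interleukin-12 in T cells and natural killer (NK) cells, was close to the lower end of the measured range. Its values were 0.06, 0.09, 0.11 and 0.04 FPKM in sham and 0.04, 0.04 and 0.09 on day 1. On day 7 they were 0.51, 0.94 and 0.31, and on day 14 they were 0.43, 0.51, 0.41 and 0.39. Both later groups lay wholly above sham, at 7.82 and 5.8 times the sham mean, and sample 3 of day 7 (0.27) did so as well. A fold from values this low rests on few fragments. When genes at any level entered the fit, Stat4 was called on day 7 (limma's adjusted p = 0.00305) and day 14 (limma's adjusted p = 0.0125).

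Stat6 had 22.34, 24.66, 24.52 and 24.98 FPKM in sham, 28.69, 28.35 and 27.80 on day 7 and 25.79, 22.84, 18.91 and 25.34 on day 14. It was thus above all sham samples on day 7 but not on day 14, where sample 3 was the lowest. The log2 fold change on day 7 was 0.22 (95% interval 0.04 to 0.41, limma's adjusted p = 0.0928), and between days 14 and 7 it was -0.28 (-0.47 to -0.10), which did not pass (limma's adjusted p = 0.274). Without sample 3 of day 14 the day 7 difference from sham was called (log2 fold change 0.22, limma's adjusted p = 0.0102). It was also called in a fit of only the day 7 and sham samples (limma's adjusted p = 0.0125), but not in 21 of 23 alternatives. The day 7 sample that the study left out had 21.18 FPKM, below sham, and with all 16 samples the log2 fold change was 0.12 (limma's adjusted p = 0.412). Stat5a, a mediator of prolactin, growth hormone and interleukin-2 signals, lay between 4.05 and 5.07 FPKM in all 14 samples. It has a close paralog, Stat5b, and how fragments common to both were divided rests on the estimate of RSEM. Its log2 fold changes against sham were 0.06, 0.07 and 0.07 on days 1, 7 and 14 (lowest adjusted p from limma 0.5), and those of days 7 and 14 turned to -0.10 and -0.04 after quantile normalization.

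Socs3, the inhibitor that binds receptors of the interleukin-6 family, rose with Jak3. It had 3.5, 3.3, 3.80 and 3.97 FPKM in sham and 3.55, 4.34 and 3.68 on day 1. On day 7 it had 7.47, 5.65 and 7.52, all above sham, and on day 14 it had 5.46, 7.70, 3.96 and 5.49, of which sample 3 fell within the sham range. Socs3 was 1.89 times its sham mean on day 7, or 0.76 higher on the log2 scale (standard error 0.152, limma's adjusted p = 0.00426), and 1.55 times on day 14, or 0.49 higher (standard error 0.141, limma's adjusted p = 0.0325). With the 2 further samples, of which sample 3 of day 7 had 13.21 FPKM, the day 7 log2 fold change was 0.97 (limma's adjusted p = 0.00266), while day 14 did not pass (limma's adjusted p = 0.131).

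The day 14 call of Socs3 was lost when any of samples 1, 2 and 4 of day 14 or samples 1, 2 and 3 of sham was left out. The log2 fold change then lay between 0.35, without sample 2 of day 14 (limma's adjusted p = 0.0726), and 0.51, without sham sample 3 (0.0604), and the highest adjusted p was 0.0878, without sham sample 2. The other values were 0.50 (0.0535) and 0.49 (0.0529) without samples 1 and 4 of day 14 and 0.48 (0.0787) without sham sample 1.

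Socs1, an inhibitor that binds JAKs directly and is best known for limiting interferon-gamma signals, had the largest fold change of the tested members but also the largest spread. Its values were 1.19, 1.39, 1.76 and 1.81 FPKM in sham and 0.92, 1.39 and 1.11 on day 1. On day 7 they were 4.29, 4.20 and 3.97, and on day 14 they were 3.18, 10.23, 1.67 and 3.14. The day 7 samples lay close together and wholly above sham, whereas on day 14 sample 3 fell within the sham range and sample 2 stood far above the other 3. The log2 fold change was 1.03 on day 7 (95% interval 0.30 to 1.76, limma's adjusted p = 0.0507) and 0.92 on day 14 (0.25 to 1.59, limma's adjusted p = 0.065), both just short of the threshold.

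The wide spread on day 14 enters the error of the day 7 comparison, because all groups share it in the fit. Without sample 2 of day 14 the day 7 log2 fold change of Socs1 was again 1.03 but was called (limma's adjusted p = 0.000382), and so it was without sample 3 of day 14 (limma's adjusted p = 0.0189) or in a fit restricted to the day 7 and sham samples (limma's adjusted p = 0.000266). Sample 3 of day 7, left out by the study, had the highest Socs1 of all 16, 14.57 FPKM, and with it the log2 fold change was 1.43 (limma's adjusted p = 0.018). On day 14, leaving out sample 3 gave a called log2 fold change of 1.20 (limma's adjusted p = 0.0114), and leaving out sample 2 gave 0.51 that was not called.

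Since Socs1 is itself a target of STATs, the 250 bases before its start are shown, from RefSeq on build GRCr8 (chr10:5389324-5389573, plus strand). Capitals mark TTCNNNGAA, the palindrome that STAT dimers bind, and further on 2 overlapping copies of a GAAA pair (GAAA, 2 letters of any kind, GAAA), an element of the kind that interferon-responsive factors bind.

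Socs1: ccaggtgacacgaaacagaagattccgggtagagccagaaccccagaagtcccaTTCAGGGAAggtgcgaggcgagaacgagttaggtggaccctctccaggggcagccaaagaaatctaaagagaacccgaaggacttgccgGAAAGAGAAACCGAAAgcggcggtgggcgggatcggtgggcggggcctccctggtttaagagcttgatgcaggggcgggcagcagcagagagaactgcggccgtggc

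Both strands were searched. The palindrome began at -196 in this window, and the 2 other copies began at -107 and -101. The table held such a stretch for 7 of the 10 genes (not for Jak1, Jak3 and Socs2), and of these 7 only Socs1 held either motif. Of 5 further family genes with such a stretch 1 held TTCNNNGAA, namely Cish, another SOCS family inhibitor, at 4 positions, and Cish was not called on day 7 (log2 fold change -0.08, limma's adjusted p = 0.741) or day 14 (0.06, 0.767). None of the 7 held TTC and GAA set 4 letters apart, the wider spacing that STAT6 binds. Of 33469 rat promoters of the same length, 7.67% held TTCNNNGAA, 6.25% the wider spacing and 3.41% the GAAA pair, the last of which was chosen for the search after the sequences were seen. These matches are descriptions of letters, and binding was not measured.

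Socs2 did not pass the test on any day. It had 10.35, 11.94, 9.44 and 9.76 FPKM in sham, 9.82, 12.92 and 8.83 on day 1 and 9.05, 7.52 and 9.48 on day 7. On day 14 it had 8.42, 9.05, 9.51 and 9.99, and the groups overlapped on every day. Its log2 fold change was -0.23 on day 7 (95% interval -0.48 to 0.02, limma's adjusted p = 0.193) and -0.15 on day 14 (-0.38 to 0.08, limma's adjusted p = 0.383). Quantile normalization gave -0.35 on day 7, which was called (limma's adjusted p = 0.0497). Sample 3 of day 7 was again apart with 16.20 FPKM, the highest of all samples.

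On day 1 the log2 fold changes of the 9 tested members lay between -0.24 (Socs1) and 0.13 (Jak3), with adjusted p of at least 0.976 from limma and 0 members at an unadjusted p under 0.05. Over all genes, 0 were called on day 1 (0%) and 734 (5.23%) had an unadjusted p under 0.05. Each of the 10 genes overlapped with sham on that day, sample 2 of day 1 included, whereas 6.17% of tested genes lay wholly above sham. By the same measure 6 of the 10 lay wholly above sham on day 7. These were Stat4, which was not tested, and, among the tested members, Jak2, Jak3, Stat6, Socs1 and Socs3. On day 14 there were 3, Stat4 and, among the tested members, Jak1 and Jak3. Of all tested genes, which do not include Stat4, 23.8% lay wholly above sham on day 7 and 13.8% on day 14. With all 16 samples the members wholly above sham were 5 on day 7, without Stat6, and 3 on day 14. The share over all genes was not computed for 16 samples.

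Between the tumor days, Jak3, Socs1 and Socs3 were higher on day 7 than on day 1, where 9.02% of all tested genes were higher (5.45% to 5.95% without sample 1 or 3 of day 1 or sample 1 or 2 of day 7) and 1.42% lower, and 0 of them passed the cut-offs of the study, which 0.884% did. The log2 fold changes were 0.80 for Jak3 (limma's adjusted p = 0.00809), 1.27 for Socs1 (0.0397) and 0.69 for Socs3 (0.0159). The Jak3 difference was called when any 1 sample was left out. That of Socs1 was lost on leaving out any of the day 1, day 7 or sham samples in turn, with log2 fold changes from 1.20 to 1.36 and adjusted p from limma up to 0.12 (without sample 1 of day 1), and that of Socs3 without samples 1 or 4 of day 1 or of day 7 (0.63 to 0.67, adjusted p up to 0.0664).

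Between days 14 and 1, 0 members were called by limma, where 5.9% of all tested genes were higher and 1.06% lower, and 4 of 9 had an unadjusted p under 0.05, against 21.8% of all tested genes. The share of genes called higher rested on single samples, and was 1.84%, 1.94% and 2.22% without samples 1, 3 and 4 of day 1 and 0.923% in a fit of only these 2 groups. The log2 fold changes were 0.53 for Jak3 (limma's adjusted p = 0.0611), 1.16 for Socs1 (0.0559) and 0.43 for Socs3 (0.111), and all of these were called without sample 3 of day 14 (0.58, 1.44 and 0.56, with adjusted p of 0.0494, 0.0109 and 0.0186). Jak3 was also called without sample 4 of day 14 (0.59, limma's adjusted p = 0.0464), and Socs1 without its sample 2 (0.75, limma's adjusted p = 0.0182).

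Between days 14 and 7, 0 members were called by limma and 1 of 9, Stat6, had an unadjusted p under 0.05, a share near the 9.96% of all tested genes. Over all tested genes 0.00713% were higher and 0.0927% lower. The log2 fold changes of Jak3 and Socs3 were -0.27 (95% interval -0.61 to 0.06) and -0.26, so that a partial return toward sham was not separable from the spread.

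The shares of the members in their families are given as a description, with no test. Jak1 made up 81.4% ± 0.991 (SD, n = 4) of the summed FPKM of the 4 JAK genes in sham and 75.9% ± 0.402 (SD, n = 3) on day 7, while Jak3 went from 3.45% ± 0.449 to 6.58% ± 0.349 and Tyk2, the remaining JAK gene, from 6% to 7.29%. Of the summed FPKM of Stat2, Stat3, Stat4, Stat5a, Stat5b and Stat6, Stat3 made up 58.1% ± 0.465 in sham, 51.1% ± 0.593 on day 7 and 53.1% ± 3.46 on day 14, while its own FPKM did not pass the test. This sum was 133 ± 3.71 FPKM in sham and 153 ± 4.8 on day 7, and the share of Stat2 was 11.9% ± 0.949 and 19.1% ± 1.71. Of the 8 SOCS genes, Socs1 went from 2.4% ± 0.42 to 6.16% ± 0.457 and Socs3 from 5.71% ± 0.471 to 10.2% ± 1.16, whereas the sum of the family, led by Socs5, was 63.8 ± 2.41 FPKM in sham and 67.5 ± 3.11 on day 7. In sample 3 of day 7 the shares went further for Socs1 (13.7%) and Jak2 (19.6%), and Stat3 was at 46.6%.

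**Figure D3:**
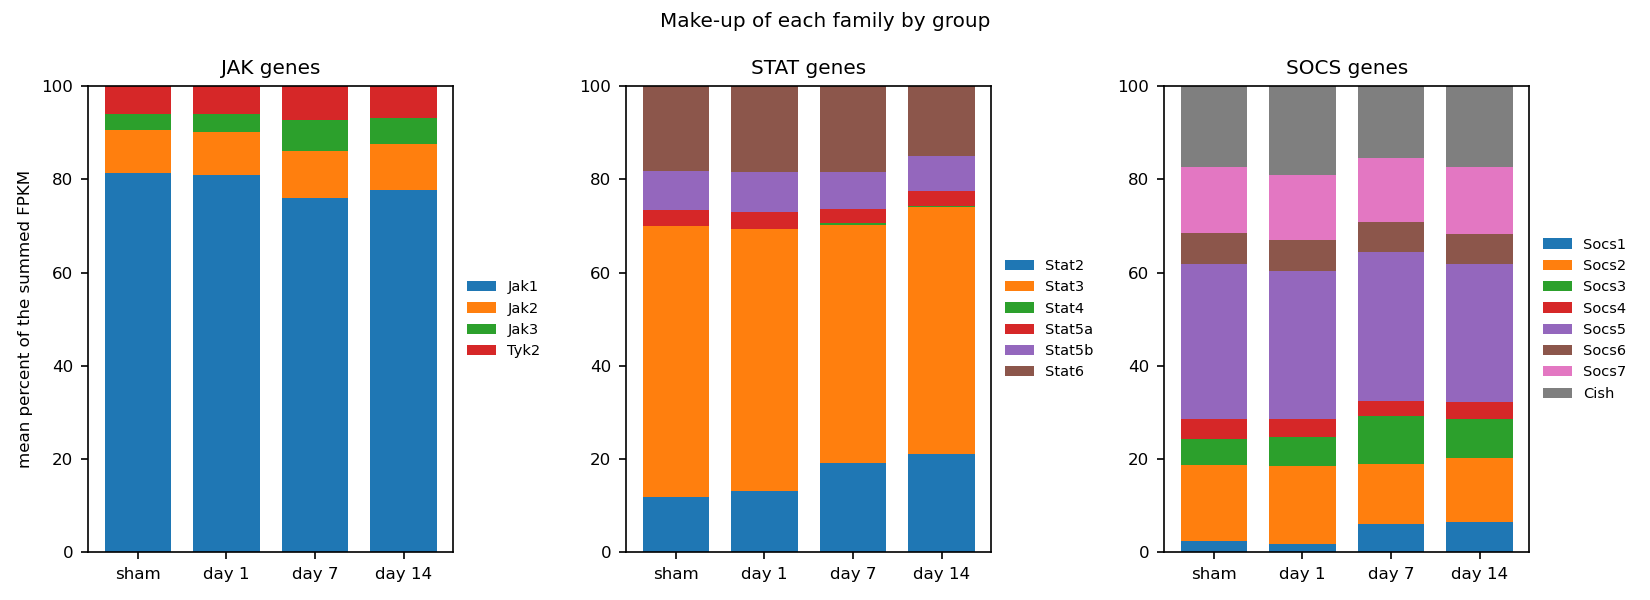
Mean percent of the summed FPKM that each gene takes of the 4 JAK, 6 STAT and 8 SOCS genes analysed, by group (4, 3, 3 and 4 samples). The share of Jak3 goes from 3.45% in sham to 6.58% on day 7, and that of Stat3 from 58.1% to 51.1%.

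Of 8 further family genes, 2 rose on days 7 and 14, when 14.5% and 11.9% of all tested genes were higher. Stat2, a factor of the response to type I interferon, had log2 fold changes of 0.84 and 0.96 (limma's adjusted p = 0.0322 and 0.0141). Tyk2, a kinase of interferon and interleukin-12 receptors, had 0.43 and 0.31 (limma's adjusted p = 0.00176 and 0.01). The 6 others, Stat5b, Cish, Socs4, Socs5, Socs6 and Socs7, did not pass on either day.

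Other genes of the pathway were counted by role. Beside these counts stand 14.5% of all tested genes higher on day 7, and 11.9% higher and 3.21% lower on day 14. With few genes in most lists, shares near these are not read as particular to a list. Of 27 ligands only 5 were expressed highly enough to be tested, and 2 of these were higher on day 7 and 3 on day 14. Those called on day 7 were Ebi3, a subunit of interleukin-27 and interleukin-35 (log2 fold change 0.98, limma's adjusted p = 0.000219), and Clcf1, a cytokine that uses the receptor of ciliary neurotrophic factor (0.68, 0.00952). Il6, the best known activator of STAT3, lay between 0 and 0.17 FPKM in sham, 0.04 and 0.38 on day 1, 0 and 0.16 on day 7 and 0.03 and 0.22 on day 14, below the level needed for the test, and Ifng was listed at 0 in all sham samples and in the 3 used samples of day 1 and between 0.08 and 0.64 on day 7. Both of these were named after their values were seen. Of 35 receptor genes 27 were tested, of which 17 were higher on day 7. On day 14, 12 were higher and 1, Ghr, the growth hormone receptor, was lower (log2 fold change -0.27, limma's adjusted p = 0.00725). The receptor genes with the largest change on day 7 were Il2rg, the common gamma chain with which the JAK3 protein pairs (1.80, limma's adjusted p = 0.00207), Csf2rb (1.79, 0.000536) and Csf2ra (1.75, 0.000445), the chains of the GM-CSF receptor.

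Of 12 other regulators, all tested, 3 were higher on day 7 and 3 on day 14, against 14.5% and 11.9% of all tested genes. On day 7 these were Ptprc (log2 fold change 2.58, limma's adjusted p = 0.000496), which encodes the leukocyte phosphatase CD45, Ptpn6 (2.04, 0.00162), which encodes the phosphatase SHP-1, and Sh2b3 (0.59, 0.0167), an adaptor that restrains JAK2. The Pias genes, inhibitors of activated STATs, were not called on day 7. Of 17 known STAT target genes 16 were tested, with 7 higher on day 7 and 3 on day 14. The leading targets on day 7 were Irf1, an interferon-responsive factor (2.25, limma's adjusted p = 0.00348), A2m, an acute-phase gene (1.66, 0.00378), and Tbx21, the T-bet gene of T cells and NK cells (1.37, 0.000649). The median log2 fold change on day 7 was 0.36 for the tested ligands, 0.46 for receptors, 0.18 for regulators and 0.49 for targets, beside 0.04 for all genes. Some of these genes stayed below 1 FPKM in sham, such as Csf2rb (at most 0.29), Ptprc (0.79) and Tbx21 (0.05). They entered the test through days 7 and 14, where they were high. The medians and counts of these lists are therefore not read as a rise of the pathway. Of 9 genes known from nerve injury, 8 were tested and 2 were higher on day 7, Csf1 (0.71) and Jun (0.28), against 14.5% of all tested genes. Between days 14 and 7 the 1 gene of these lists that was called was Csf3r, the receptor of G-CSF, which was lower on day 14 (log2 fold change -0.66, limma's adjusted p = 0.0441).

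**Figure D4:**
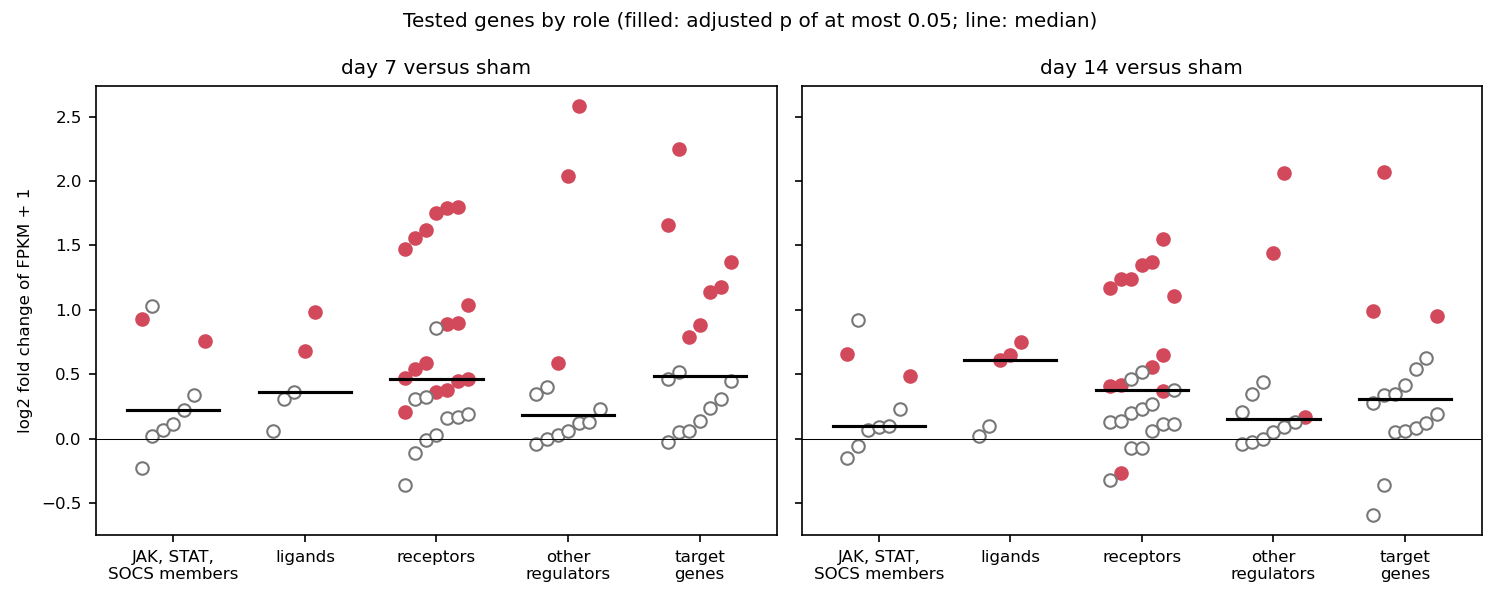
Log2 fold change of FPKM + 1 against sham on days 7 and 14 for the tested genes of each role, with filled points for an adjusted p of at most 0.05 and a line at the median. Receptors, with a median of 0.46 on day 7, reach 1.80, while the members reach 1.03.

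Markers of macrophages, T cells and NK cells, and on day 7 also those of fibroblasts and neutrophils, moved with the higher levels of Jak3, Stat4, Socs1 and Socs3. The sum of 12 macrophage markers was 65.6 to 124 FPKM in sham and 86.8 to 104 on day 1. It was 869 to 1180 on day 7 and 495 to 1710 on day 14. All 12 were called on day 7 and 10 on day 14, where 14.5% and 11.9% of all tested genes were higher. The most abundant macrophage marker was Lyz2, a lysozyme gene. The sum of 10 T cell markers, led by Cd4, lay at 5.83 to 8.82 in sham, at 42.4 to 98.3 on day 7 and at 34.5 to 101 on day 14. All 8 of those tested were called on both days. Cd4 alone made up 4.49 to 7.23 FPKM in sham, so the other T cell markers were low there and could pass the filter through days 7 and 14. Their count of calls is thus partly set by the filter. The sum of 6 NK cell markers, led by Nkg7, lay at 0.53 to 1.02 in sham, at 13.2 to 31.1 on day 7 and at 5.92 to 28 on day 14. In the sham samples 1 of the 10 T cell markers and 1 of the 6 NK cell markers were at 0 throughout. The sum of 5 fibroblast markers, led by Dcn, which encodes decorin, lay at 314 to 441 in sham and 475 to 604 on day 1. It reached 806 to 926 on day 7 and spread from 266 to 778 on day 14, with 3 of 5 called on day 7 and 1 on day 14. The sum of 6 neutrophil markers, led by S100a9, was 0.1 to 0.46 FPKM in sham, with 3 of the 6 at 0 throughout. It was 3.28 to 17.4 on day 7 but 0.41 to 2.32 on day 14, and the 1 of the 6 that was tested was called on day 7 and not on day 14. That marker stayed below 1 FPKM in sham and on day 1 and entered the test only through the later days. Its call is thus partly set by the filter. The sum of 5 B cell markers overlapped with sham on both days (0.31 to 0.72 in sham, against 0.64 to 0.82 and 0.33 to 0.93), and 0 of these could be tested. The sum of 9 neuron markers was 16900 to 17800 FPKM in sham and 14400 to 15100 on day 7. The part of these cells in the levels of the JAK, STAT and SOCS genes was not tested.

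Within day 14, samples 2 and 3 differed most in the members. Sample 2 was the highest of the 4 for 7 of the 10 members and also had the highest macrophage (1710 FPKM), T cell (101) and NK cell (28) sums. Sample 3 was the lowest for 5 members, with 506, 34.5 and 5.92 FPKM of these markers. Sample 4 was the lowest for 4 members, with 495, 41.1 and 6.67 FPKM, and its macrophage sum was the lowest of the 4. Despite the similar macrophage sums, Socs1 and Socs3 stood at 1.67 and 3.96 FPKM in sample 3 and at 3.14 and 5.49 in sample 4. On day 7, sample 3, which the study left out, was the highest for 5 members, Jak2, Stat5a, Socs1, Socs2 and Socs3, and the lowest for the other 5, while its macrophage (767 FPKM), T cell (27.9) and NK cell (10.6) sums were the lowest of the 4 day 7 samples. Its neutrophil sum (11.8) was the second highest of the 4. Besides the skeletal muscle markers, it held the highest sums of all 16 samples for satellite glia (547 FPKM, against 155 to 234 in the others), endothelium (86, against 43.2 to 67.5) and B cells (1.14, against 0.31 to 0.93). The part of these cells in its values was not tested.

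**Figure D5:**
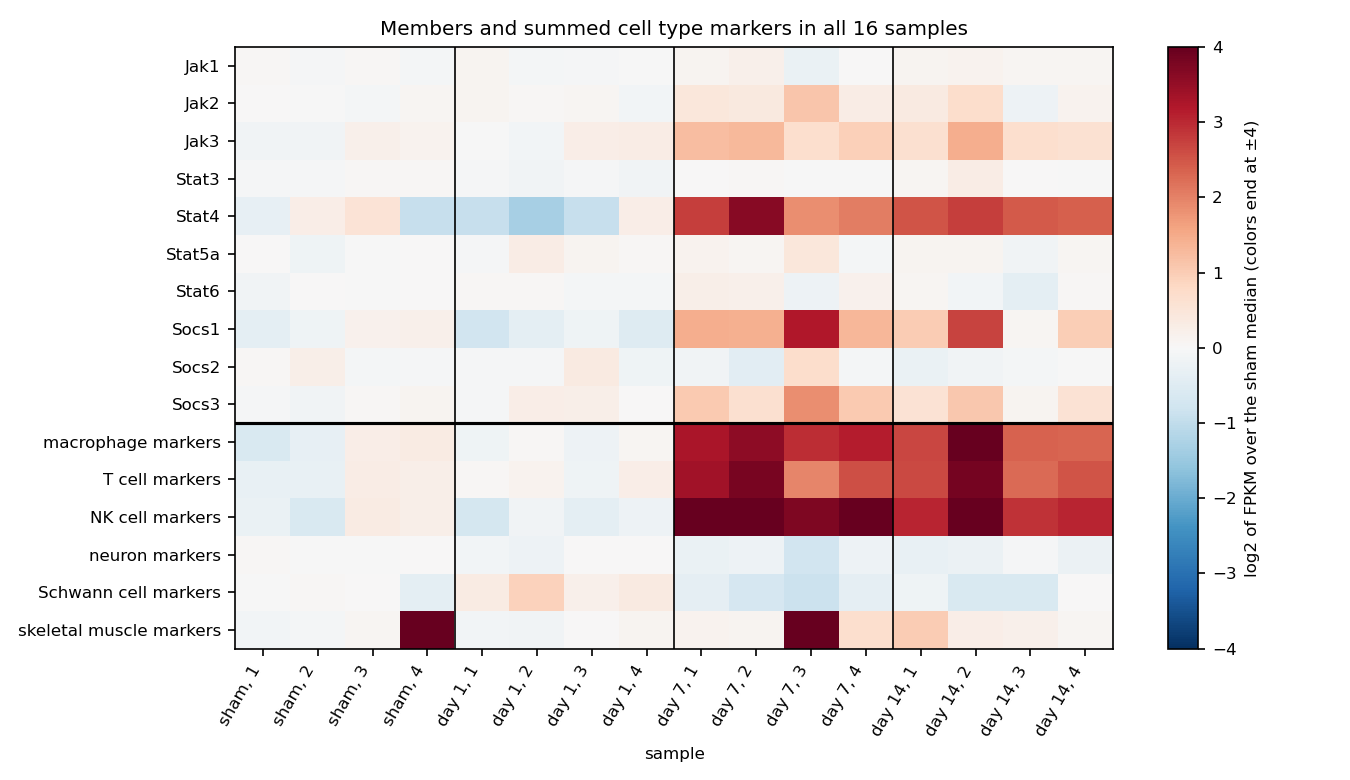
Log2 of the FPKM of each member, and of the summed FPKM of cell type markers, over the median of the sham samples, in all 16 samples (colors end at ±4). The rows of Jak3 and Stat4 and those of the macrophage, T cell and NK cell markers are red on days 7 and 14, as are Socs1 and Socs3 except in sample 3 of day 14, and sample 3 of day 7 stands out in its muscle markers, shared only with sham sample 4, and in Socs1, Socs3 and Jak2.

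The genes whose log2(FPKM + 1) most resembled each member over the 14 samples are given as a description. These samples share the group differences and come from mixed tissue, and r was not computed within groups. Jak3 was closest to Plek (Pearson r = 0.986, n = 14), Bcl2a1 (0.986) and Cmtm7 (0.985), and Socs1 to Mcm5 (0.977), Cd86 (0.973) and Tagap (0.971). Plek, which encodes pleckstrin, and Cd86, a costimulatory molecule of antigen-presenting cells, are known from blood and immune cells. The other genes listed, among them Mcm5, were not assigned to cell types, and the cells of origin were not tested. Among the genes closest to Socs3 were Pros1 (0.951) and Arl11 (0.95), and Jak2 was closest to Erap1 (0.955), Plekho2 (0.953) and Arhgap17 (0.953). Stat3 resembled Rnf115 (0.955), Sesn2 (0.911) and Traf6 (0.901), and Jak1 Fancd2 (0.924), Primpol (0.894) and Fam107b (0.879). Stat6 lay closest to Ehd2 (0.927), Mlec (0.919) and Nfatc3 (0.917), and Stat5a to Zfp161 (0.905), Ldlrad3 (0.885) and Prr12 (0.876). For Socs2 the highest values were lower, with Stk39 at 0.816, LOC100912904 at 0.803 and Abhd8 at 0.795, and Stat4 was not compared because it did not pass the filter.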

How the data were processed

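RNA of DRGs from 16 rats, 4 per group, was sequenced on BGISEQ-500, per the methods of the study. Its authors removed low-quality reads, mapped the rest with HISAT and Bowtie2, estimated gene levels with RSEM and deposited FPKM values, 1 table per sample. The labels also name CASAVA 1.4 and describe an Illumina protocol. The genome build and annotation are not given in the sources used here. FPKM holds no read totals. The study reports the average number of clean reads and a read summary by sample, but these were not used here and no counting error was computed. The lowest values of 685 genes put the relative depth roughly between 0.97 and 1.029, an estimate that understates differences. No 2 samples shared more than 2.591% of identical values.

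Groups came from the labels. The deposited FPKM were transformed to log2(FPKM + 1), and genes that reached 1 FPKM in 3 fitted samples or more entered 1 limma 3.58.1 fit (lmFit, then eBayes with an intensity trend, R 4.3.3) of the 14 samples that the study kept. A call was an adjusted p of at most 0.05 (Benjamini-Hochberg over all tested genes). The rats differ between samples, so p-values measure the spread between rats. On simulated data for day 7 versus sham (13845 genes), 98 of 100 genes changed by a log2 fold of 1 and 99 of 100 changed by 2 were recovered, with 15 false calls among 212. Recovery of genes whose spread differs between groups was not tested. Socs1 is such a gene, with an SD of 0.165 FPKM on day 7 and 3.85 on day 14. Its log2 fold change of 1.03 on day 7 was not called. Same-numbered samples are different rats, and the pairing was checked only as an alternative.

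The members and all lists (198 of 199 list symbols were found) were chosen with earlier results of these data known. All members were named. From the other lists, the 3 genes with the largest change among those called on day 7 and between days 14 and 7 were named, and for each tested member the 3 genes with the highest Pearson r. Alternatives were all 16 samples, only the 2 groups compared, no trend, quantile normalization, median centring, a pseudocount of 0.1, no filter or a stricter one (mean FPKM of 5 or more), the replicate block, the cut-offs of the study and each sample left out. Results for 3 genes are not reported here. Promoters came from RefSeq (GRCr8). Plots were made in Python 3.11.15 with matplotlib 3.10.9.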

Additional observations from a re-analysis of the deposited data

Results flagged for a closer look

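In each of the 10 genes and 4 groups, the highest and lowest of the 4 samples were compared with the nearest of the others by Dixon's ratio, with all 16 samples included. Of these 40 groups 7 held a sample set apart, where chance gives about 1 in 20. On day 7, sample 3, which the study left out, was high for Jak2 (16.15 FPKM) and Socs1 (14.57 FPKM) and low for Stat6 (21.18 FPKM), and it was also the sample with 19600 FPKM of skeletal muscle markers. On day 14, sample 2 was high for Jak3 (7.67 FPKM) and had the highest macrophage marker sum of all samples, 1710 FPKM, and sample 3 was low for Stat5a (4.16 FPKM). Sham sample 2 was low for Stat5a (4.05 FPKM), a gap of less than 1 FPKM. Sample 4 of day 1 was high for Stat4 (0.09 FPKM), a value that rests on few fragments.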

How the results depend on the processing

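Jak3 stayed called on day 7 (log2 fold change 0.76 to 1.13) and day 14 (0.48 to 0.81) and Socs3 on day 7 (0.59 to 0.97) under each of 22 alternatives. A mean of at least 5 FPKM removes Jak3, Stat5a, Socs1 and Socs3 from the test and leaves Jak1, Jak2, Stat3, Stat6 and Socs2. With that filter 0 members were called on day 7, on day 14 and for day 7 versus day 1. Of all genes tested there, 12.1%, 10.5% and 6.12% were higher. The cut-offs of the study gave 0 members in each comparison as well, where 1.83%, 0.642% and 0.884% of all tested genes were higher. Counts of members called moved in these cases too. With all 16 samples 4 were called on day 7, 1 on day 14 and 1 for day 14 versus day 1. All of these were higher, as were 14.5%, 8.86% and 5.08% of all tested genes in that fit. With only the 2 groups compared, the members called were 5, 1 and, for day 7 versus day 1, 5. Of all tested genes 17%, 6.82% and 11.3% were higher there. Quantile normalization gave 1 on day 14, while no filter (Stat4) and a pseudocount of 0.1 (Socs1, log2 fold change 1.61) each gave 1 for day 14 versus day 1. The shares of all tested genes that were higher were 7.85%, 3.34% and 6.6% in these cases. The pseudocount of 0.1 also brought Socs1 past the threshold on day 7 (1.39, limma's adjusted p = 0.0345). Over all genes, 2512 were called on day 7 and 2120 on day 14, against 1573 and 1385 with a mean of 5 FPKM or more, and on day 14 also against 1389 with all 16 samples and 1128 with only day 14 and sham, and 1374 and 1364 without sham sample 1 or 2. Without sample 2 of day 14, 178 genes were lower on day 14 than on day 7, against 13. Leaving out 1 sample gave 0 members on day 1, 2 to 5 on day 7, 1 to 4 on day 14, 1 to 4 for day 7 versus day 1, 0 to 3 for day 14 versus day 1 and 0 for day 14 versus day 7. The share of all tested genes that were higher moved too, from 10.1% to 17.1% on day 7 and from 8.11% to 14.4% on day 14. It ranged from 5.45% to 11.6% for day 7 versus day 1 and from 1.84% to 8.78% for day 14 versus day 1.

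With the replicate number as a block, 1 member (Jak3) was called on day 14 and 1 for day 7 versus day 1, where 11.8% and 6.26% of all tested genes were higher. Socs3 had limma's adjusted p = 0.0609 on day 14 with this block. The deviations of same-numbered samples had correlations of -0.095 to 0.269 (median 0.002), and those of differently numbered samples -0.326 to 0.41 (median -0.005). Of the 14 samples, 6 correlated best with a sample of their own number. Whether samples share an effect of their number was not tested.

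Signs turned in small differences that were not called. With all 16 samples these were Jak1 (-0.01), Stat6 (0.01) and Socs2 (-0.01) on day 1 and Jak1 (0.07), Stat5a (-0.08) and Socs2 (-0.12) between days 14 and 7. Quantile normalization turned Stat3 (0.00) and Stat5a (-0.10) on day 7 and Stat5a on day 14 (-0.04), and median centring Stat3 (-0.09) and Stat5a (-0.04) on day 7 and Jak1 between days 14 and 7 (0.02). On leaving out 1 sample, the day 1 values ranged from -0.03 to 0.05 for Jak1, -0.01 to 0.08 for Jak2, -0.05 to 0.01 for Stat6, -0.14 to 0.11 for Socs2 and -0.01 to 0.11 for Socs3, Stat3 on day 7 from 0.00 to 0.03 and Stat6 on day 14 from -0.11 to 0.03. Between days 14 and 7 they ranged from -0.07 to 0.04 for Jak1, -0.26 to 0.02 for Jak2, -0.25 to 0.03 for Stat4, -0.05 to 0.06 for Stat5a, -0.52 to 0.17 for Socs1 and -0.01 to 0.14 for Socs2. The causes were not tested, and with 3 or 4 rats per group small changes could be missed.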
